A study of Mus musculus with 35 samples.

Results

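The genes described here are 45 cell cycle genes, 26 that mark G2 phase and mitosis (G2M) and 19 that mark S phase, out of 23538 gene rows in the count tables of a single-cell mRNA sequencing study of the mouse small intestine. They were taken from a fixed list of gene names, and each name matched 1 row. S phase is when DNA is copied: origins are licensed by Cdc6 and Cdt1, the Mcm2 to Mcm7 helicase opens the DNA, Gins2 is part of the active helicase, Pcna and Lig1 act at the fork, and Rrm1, Rrm2, Tyms, Tk1 and Dut supply nucleotides. In G2 and mitosis, Cdk1 with cyclins A2, B1 and B2 drives entry, Aurka, Aurkb, Plk1 and the kinesins build and use the spindle, Bub1 and Bub1b hold the checkpoint, and Cdc20 and Ube2c serve the anaphase-promoting complex that ends mitosis. In the intestine, dividing cells lie in the crypt: Lgr5-positive stem cells at the base and transit-amplifying progenitors above them, which stop dividing as they become enterocytes, goblet cells, Paneth cells or enteroendocrine cells.

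All cells came from small intestinal crypts of C57BL/6 mice, were sorted into plate wells and were counted by CEL-seq, a method that counts the 3′ ends of transcripts with 4-base molecular barcodes. Whole organoid replicates 1 and 2 held randomly taken cells of wild-type organoids grown in Matrigel with EGF, R-spondin and Noggin, from 1 mouse. Reg4-positive replicates 1 and 2 were dsRed-sorted cells of organoids from a Reg4-dsRed knock-in mouse, and the 1 Lgr5-positive organoid library came from an Lgr5-GFP-DTR mouse. The organoid replicates were passages of a culture, not separate animals. The other 2 groups were sorted straight from the intestine: 2 plates of Lgr5-EGFP-positive cells, and 5 plates of YFP-positive cells taken 5 days after Lgr5-Cre removed a loxP-flanked stop before YFP at Rosa26, so the stem cells and their progeny of those days. The labels do not say whether these plates came from different mice, so every p-value measures the spread between passages or plates, which may be technical.

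Of 1680 wells, 1209 had at least 1500 counts and were kept, 35 to 276 per replicate, with medians of 4608 to 13131.5 counts per kept well and 293702 to 2870987 counts per replicate. Lgr5 stood at 112 and 147 CPM (counts scaled to a common library size) in Lgr5-EGFP plates and 245 in the Lgr5-positive library. It stood at 48.2 to 94.4 in YFP plates, 29.9 and 63.4 in whole organoids, and 82.7 and 193 in Reg4-positive cells. Lgr5 thus did not set the Lgr5 sorts apart from Reg4-positive cells, whose replicate 2 lay above both Lgr5-EGFP plates. In replicate order, the Paneth marker list summed to 148962 and 44214 CPM in Reg4-positive cells against 387 and 4722 in whole organoids. The enterocyte list summed, in the same order, to 39943 and 19247 in whole organoids against 754 and 773 in Lgr5-EGFP cells. Immune markers summed to at most 87.1 CPM in any replicate, and stromal markers to at most 325, in Reg4-positive replicate 2. In that replicate 3 wells above 100000 counts held 49.3% of the kept counts. The Lgr5-EGFP plates had 0.925% and 0.948% of counts in spike-in RNA, and all other replicates had 3.36% to 12.2%.

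The start sites of the S and G2M genes carry different short motifs, and 4 promoters are printed because their genes were among the members that moved in opposite directions between the intestinal sorts. As background, late cell cycle genes are known for the cell cycle genes homology region (CHR), read by the DREAM and MuvB complexes, together with CCAAT boxes bound by NF-Y, while early genes are known for E2F sites. Windows of 300 bases, from 250 before to 50 after the start, were read from RefSeq (GRCm38.p6) for 39 of the 45 members and searched on both strands for CHR (TTTGAA or TTCGAA), the CCAAT box (CCAAT) and E2F (TTTCCCGC, TTTCGCGC, TTTGCCGC or TTTGGCGC). Each line below runs 5′ to 3′ along the gene, with matches to any of these motifs in capitals. A reverse-strand match appears as its reverse complement.
Ube2c (chr2:164769679-164769978, plus strand): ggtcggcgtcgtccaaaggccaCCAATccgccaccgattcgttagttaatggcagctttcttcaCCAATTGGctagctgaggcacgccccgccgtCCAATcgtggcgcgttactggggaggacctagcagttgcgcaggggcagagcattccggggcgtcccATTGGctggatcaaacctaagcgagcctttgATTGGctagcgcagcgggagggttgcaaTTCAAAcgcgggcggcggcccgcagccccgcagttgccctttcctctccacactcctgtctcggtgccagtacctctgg
Ccnb2 (chr9:70421505-70421804, minus strand): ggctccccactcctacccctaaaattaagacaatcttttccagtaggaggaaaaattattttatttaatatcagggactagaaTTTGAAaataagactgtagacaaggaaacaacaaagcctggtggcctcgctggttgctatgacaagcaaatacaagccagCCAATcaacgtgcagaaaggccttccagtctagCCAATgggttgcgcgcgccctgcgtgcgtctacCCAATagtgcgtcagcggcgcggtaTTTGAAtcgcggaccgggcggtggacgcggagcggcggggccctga
Hells (chr19:38930740-38931039, plus strand): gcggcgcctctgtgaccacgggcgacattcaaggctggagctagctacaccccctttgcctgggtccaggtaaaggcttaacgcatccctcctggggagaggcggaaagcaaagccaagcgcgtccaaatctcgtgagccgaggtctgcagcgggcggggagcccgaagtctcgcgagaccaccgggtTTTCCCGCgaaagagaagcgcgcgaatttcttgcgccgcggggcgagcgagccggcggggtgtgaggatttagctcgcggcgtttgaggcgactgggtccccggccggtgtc
Mcm3 (chr1:20820263-20820562, minus strand): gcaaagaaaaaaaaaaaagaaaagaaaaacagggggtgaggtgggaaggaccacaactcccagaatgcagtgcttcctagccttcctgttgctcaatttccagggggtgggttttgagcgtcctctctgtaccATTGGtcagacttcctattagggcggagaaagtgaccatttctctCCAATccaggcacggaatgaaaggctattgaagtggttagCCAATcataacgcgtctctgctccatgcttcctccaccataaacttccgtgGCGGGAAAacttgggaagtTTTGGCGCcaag

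The Ube2c window held 1 CHR and 6 CCAAT matches, and the Ccnb2 window held 2 CHR and 3 CCAAT matches. Hells had 1 E2F match and neither of the other motifs, and Mcm3 had 2 E2F and 3 CCAAT matches. CHR matches were found in 16 of 22 G2M windows (72.7%) and in 2 of 17 S genes (11.8%), against 21.7% of all 27025 genes with a window. E2F matches were found in 1 of 22 G2M genes (4.55%) and 9 of 17 S genes (52.9%), against 2.6% of all genes. CCAAT boxes were frequent in both sets, at 86.4% of G2M genes, 58.8% of S genes and 41.1% of all genes. A CHR and a CCAAT box together were found in 72.7% of G2M genes, 11.8% of S genes and 9.65% of all genes. A match describes the letters of the window only.

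On the CPM scale the G2M members were lower in both whole organoid and both Reg4-positive replicates than in every other replicate, while for S members the ranges met: whole organoid replicate 2 lay above 3 YFP plates. Summed over the 26 G2M members, whole organoid replicates stood at 1060 and 1742 CPM, Reg4-positive replicates at 1103 and 2222, the Lgr5-positive library at 3015, Lgr5-EGFP plates at 2357 and 2492, and YFP plates at 2792, 2821, 2690, 3293 and 3318. Summed over the 19 S members, the same replicates stood at 1406 and 2058, 1377 and 1988, 2688, 2494 and 2243, and 1992, 2008, 1862, 2087 and 2350 CPM. CPM rest on TMM, a scaling in which most genes are taken not to differ, and the order of the intestinal sorts depended on it. Per 10000 counts of the whole library, G2M members stood at 29.2 and 31.9 in Lgr5-EGFP plates and at 26.3, 26.1, 24.5, 31.6 and 31.5 in YFP plates, so 3 YFP plates lay below both Lgr5-EGFP plates and none above both. S members stood at 30.9 and 28.7 against 17.0 to 22.3 per 10000 counts, lower in every YFP plate. Without wells rich in markers of differentiated cells (at least 20 of 1500 counts from the enterocyte, goblet, Paneth or enteroendocrine list), S members were at 28.6 and 29.1 in whole organoids, 21.4 and 29.5 in Reg4-positive cells, 32.2 in the Lgr5-positive library, 32.2 and 30.1 in Lgr5-EGFP plates and 20.5 to 23.6 in YFP plates. G2M members were then at 23.2 and 24.9 in whole organoids and at 30.3 to 36.2 in the 3 sorts for Lgr5 and its progeny, and the Reg4-positive replicates were at 42.5 and 35.7, from 12 wells. Within these sums, fewer dividing cells and less RNA of these genes per cell cannot be told apart. The Reg4-positive value in replicate 2 rested on the 3 large wells: without them G2M fell from 22.2 to 7.71 and S from 19.9 to 9.23 per 10000 counts.

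**Figure D1:**
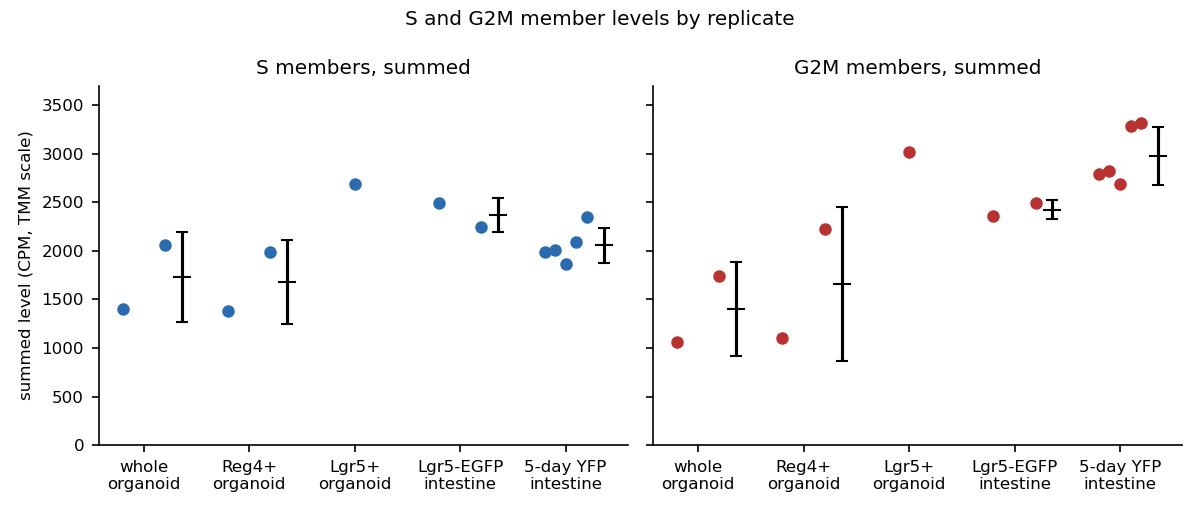
Summed level of the 19 S members (left) and the 26 G2M members (right) in each of 12 replicates, in CPM on the TMM scale, on which the order of the intestinal sorts for G2M depends; points are replicates and black bars the mean ± SD of groups with more than 1 replicate. The 5 YFP plates lie above both Lgr5-EGFP plates for G2M (at least 2690 against at most 2492 CPM), and 4 of the 5 lie below both for S; per 10000 counts no YFP plate lies above both for G2M and all 5 lie below for S.

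The balance of the sets within a replicate does not depend on library scaling. The log2 ratio of S to G2M counts was -0.49, -0.49, -0.53, -0.66 and -0.50 in YFP plates, 0.08 and -0.15 in Lgr5-EGFP plates, -0.17 in the Lgr5-positive library, 0.41 and 0.24 in whole organoids, and 0.32 and -0.16 in Reg4-positive cells. The 5 YFP plates were the lowest of the 12 replicates, and the whole organoid replicates and Reg4-positive replicate 1 were the highest. Without marker-rich wells Reg4-positive cells turned to -0.99 and -0.27, replicate 1 then lying below every YFP plate (-0.47 to -0.60), while whole organoids stayed the highest at 0.30 and 0.23.

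In cells fresh from the intestine, 9 G2M members, mitotic cyclins and Aurora kinases among them, were higher in 5-day YFP than in Lgr5-EGFP plates relative to most other genes, and 6 S members, Cdc6 and Mcm2 to Mcm4 among them, were lower. By edgeR's quasi-likelihood test, 9 of 25 tested G2M members were higher and 2 lower at a false discovery rate of 0.05, and 1 of 19 S members was higher and 6 lower. Over all 9065 genes tested 25.7% were called, 14.7% higher and 11.0% lower. The median log2 fold change was 0.23 for G2M and -0.26 for S members, against -0.00 for all genes. The higher calls depended on the scaling: on library totals without TMM the median of all genes was -0.44, and 43.7% of genes were called, 7.09% higher and 36.6% lower. There no G2M member was called higher and 5 were lower (Cdca8, Cenpe, Cenpf, Kif11 and Top2a), no S member was higher and 15 were lower, and the medians were -0.21 and -0.69. The changes below are on the TMM scale, and so relative to most other genes; the 6 lower S members and Cenpe and Top2a were called lower on both scales, and Tk1 and the 9 higher G2M members on TMM alone. Kif20a, a mitotic kinesin, had at most 3.86 CPM in any replicate and was not tested in any comparison.

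Among the S members, the chromatin remodeller Hells stood at 94.7 and 84.8 CPM in Lgr5-EGFP plates and at 49.1, 34.8, 36.1, 58.1 and 50.4 in YFP plates, a log2 fold change of -1.01 ± 0.19 (SE; adjusted p = 0.0013, edgeR). The groups did not overlap. Here and below, the share of all genes whose replicates separate in this way is not given, so non-overlap only describes the values. The helicase subunits Mcm4 (121 and 105 against 73.0, 56.3, 58.4, 76.2 and 63.9 CPM), Mcm3 (115 and 125 against 75.8, 87.1, 82.5, 54.5 and 77.3) and Mcm2 (130.3 and 148 against 78.6, 68.4, 89.3, 105 and 97.5) were also lower in every YFP plate. Their log2 fold changes were -0.80 ± 0.15, -0.63 ± 0.15 and -0.70 ± 0.16 (adjusted p = 0.0018, 0.0060 and 0.0063). The licensing factor Cdc6 stood at 33.9 and 39.5 against 14.0, 20.1, 10.3, 18.2 and 21.9 CPM (-1.13 ± 0.27, adjusted p = 0.0075), and the DNA ligase Lig1 at 149 and 119 against 98.2, 84.4, 73.9, 72.6 and 118 CPM (-0.56 ± 0.17, adjusted p = 0.031). Thymidine kinase Tk1, an enzyme of nucleotide salvage, was higher on the TMM scale, with 115 and 81.5 CPM in Lgr5-EGFP plates and 125, 147, 155, 149 and 176 in YFP plates (0.62 ± 0.18, adjusted p = 0.021). Of the other Mcm subunits, Mcm5 (-0.05 ± 0.14), Mcm6 (-0.26 ± 0.15) and Mcm7 (-0.22 ± 0.18) did not pass, and neither did Pcna, the sliding clamp of the replication fork (293 and 219 against 207 to 358 CPM, 0.20 ± 0.20).

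Among the G2M members, Ube2c, a ubiquitin-conjugating enzyme that works with the anaphase-promoting complex, stood at 176 and 249.8 CPM in Lgr5-EGFP plates and at 333, 336, 356, 367 and 450.5 in YFP plates. Its log2 fold change was 0.79 ± 0.18 (adjusted p = 0.0062). Cyclin B2 (Ccnb2) had 80.8 and 91.2 against 125, 146, 127, 203 and 143 CPM (0.76 ± 0.19, adjusted p = 0.011), survivin (Birc5) 113 and 109 against 156, 174, 139, 167 and 212 (0.62 ± 0.17, adjusted p = 0.018), and Cks2, a small subunit of Cdk complexes, 139 and 136 against 201, 174, 177, 243 and 207 (0.53 ± 0.17, adjusted p = 0.033). Each of these was higher in all 5 YFP plates than in both Lgr5-EGFP plates, a separation that was not set against that of all genes. Ccnb1, Mki67 and Aurkb were also called without overlap of the groups, and Aurka and Ccna2 were called with overlap, at log2 fold changes of 0.49 to 0.69. Members called higher on this scale were thus cyclins, the Cdk subunit Cks2, Aurora kinases and their partner Birc5, Ube2c, and the proliferation antigen Mki67.

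The G2M members did not all move together. Top2a, the topoisomerase that untangles sister chromatids, stood at 381 and 309 CPM in Lgr5-EGFP plates and at 244, 279, 156, 218 and 235 in YFP plates (-0.60 ± 0.19, adjusted p = 0.033). The centromere motor Cenpe had 48.7 and 49.8 against 36.5, 20.1, 27.5, 32.7 and 31.9 CPM (-0.75 ± 0.22, adjusted p = 0.021). Cdk1 stood at 135 and 146 against 175, 161, 148, 131 and 197 CPM and did not pass (0.23 ± 0.16, adjusted p = 0.33). Kif11, Kif23, Tpx2, Nusap1, Cdca8 and Plk1 had fitted changes between 0.00 and 0.08.

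**Figure D2:**
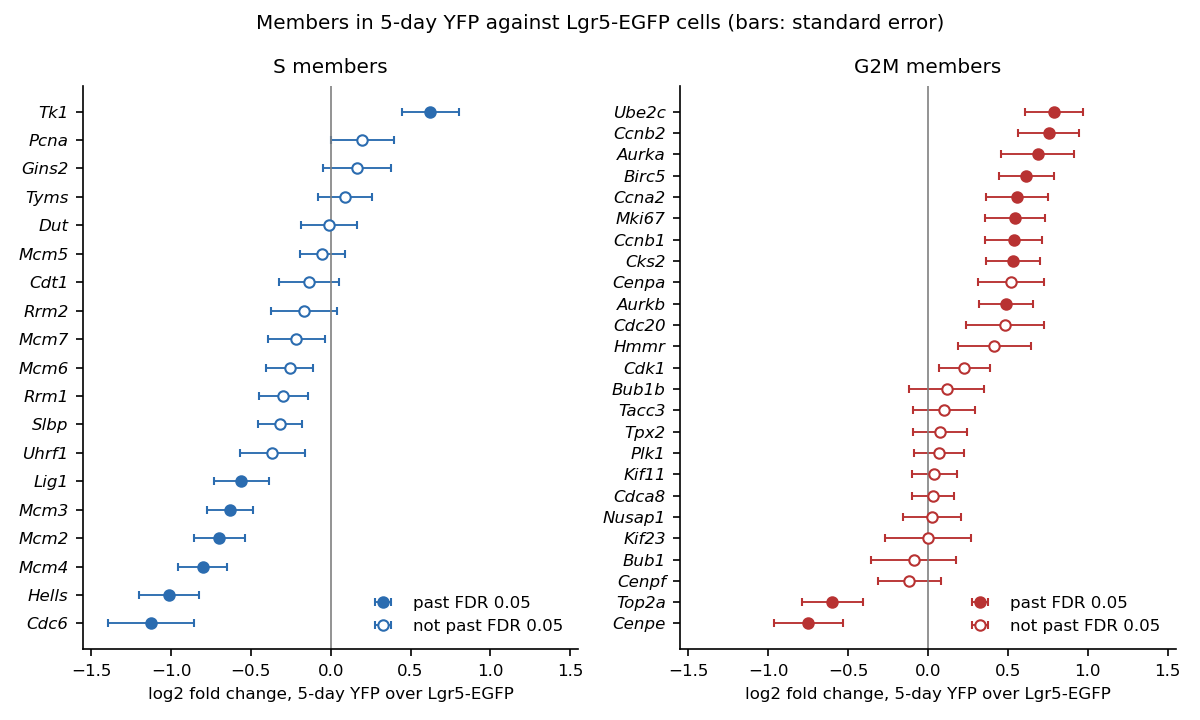
Log2 fold change of 5-day YFP over Lgr5-EGFP cells for the 19 S members (left) and 25 tested G2M members (right), with standard errors as bars and filled points for calls at a false discovery rate of 0.05. Called S members lie on the lower side apart from Tk1 (0.62), and called G2M members on the higher side apart from Cenpe (-0.75) and Top2a (-0.60), all relative to a median of all genes of -0.00 under TMM; on library totals that median is -0.44 and no member is called higher.

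Genes outside the 45 moved in the same sort comparison as follows, on the TMM scale. Of 19 tested other S genes, 6 were lower (Atad2, Chaf1b, Fen1, Mcm10, Orc1 and Pola1; Orc1, a subunit of the origin recognition complex, by -2.28 ± 0.45) and none higher. Of 32 other G2M genes, Cdca3, Kif22, Spc25 and Stmn1 were higher and Ttk lower. Among 19 regulators, Cdk4, E2f8 and Lin37 were higher and the D-type cyclins Ccnd1 (-0.61 ± 0.16) and Ccnd2 (-0.88 ± 0.16) and E2f3 were lower. The inhibitors Cdkn1a (1.89 ± 0.45) and Tob1 (1.24 ± 0.15) were higher, 2 of 8 tested. All 18 enterocyte markers, 5 of 10 Paneth, 4 of 12 goblet and 3 of 13 tested enteroendocrine markers were higher in YFP plates, and 5 of 14 stem markers were lower, Lgr5 by -0.91 ± 0.20 (adjusted p = 0.0043). Of 6 tested tuft markers none was called.

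The Lgr5-EGFP and YFP plates differ in reporter, spike-in share and marker content as well, and the part of these in the member values was not tested, apart from wells rich in differentiation markers. Without marker-rich wells, and with TMM, the same 9 G2M members were higher and the same 2 lower, Tk1 was higher, and 5 of the 6 S members were lower, Lig1 being the exception (26.9% of 8235 genes called). The G2M calls rested on few plates: without Lgr5-EGFP plate 1 none of the 11 was left and without plate 2 only Ube2c and Ccnb1 were. A joint fit over all 5 groups called no G2M and 2 S members, Cdc6 and Mcm4. The S calls without plate 1 were 5 lower and Tk1 higher, and without plate 2 Hells and Mcm4.

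Organoid cells taken at random had less mRNA of G2M genes than 5-day YFP cells, while few S genes differed. By edgeR, 19 of 25 G2M members were lower in whole organoids and none higher; 3 of 19 S members were lower and 1 higher. Over 10632 genes 22.9% were called, 9.45% lower and 13.4% higher. All 25 fitted G2M changes were negative, with a median of -1.16, against -0.31 for the S members and 0.04 for all genes. Culture, mouse, sort and preparation all differ between these groups and cannot be told apart.

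Tpx2, which brings Aurka to the spindle, had 17.7 and 26.4 CPM in whole organoids against 51.9, 61.7, 60.1, 69.0 and 70.6 in YFP plates (-1.52 ± 0.25, adjusted p = 0.00066). Mki67 had 84.1 and 99.7 against 237, 248, 204, 330.3 and 269 (-1.48 ± 0.28, adjusted p = 0.0020). The spindle protein Hmmr had 17.7 and 17.2 against 42.1, 34.8, 48.1, 61.7 and 58.8 CPM (-1.44 ± 0.28), and Nusap1, which bundles spindle microtubules, 12.6 and 27.7 against 40.7, 52.3, 51.5, 61.7 and 55.5 (-1.41 ± 0.28). Every replicate of these 4 genes was lower in whole organoids, a separation that was not set against that of all genes.

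Birc5 (75.5 and 76.0), Ccnb2 (48.7 and 54.8) and Ube2c (121 and 175 CPM) also lay below all 5 YFP plates, whose values are given above, by -1.16, -1.50 and -1.32. The kinase Aurkb had 13.4 and 38.3 against 60.5 to 83.5 CPM (-1.45 ± 0.32), the checkpoint kinase Bub1b 21.6 and 27.7 against 41.2 to 82.4 (-1.25 ± 0.29), cyclin B1 (Ccnb1) 32.6 and 61.4 against 83.5 to 128 (-1.16 ± 0.27), and the spindle protein Tacc3 18.5 and 43.6 against 58.4 to 98.0 (-1.38 ± 0.34). Ccna2, Aurka, Plk1, Cdc20, Bub1 and Cenpf had fitted changes of -0.52 to -0.97 and did not pass.

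Of the S members, Tk1 had 45.6 and 76.6 CPM in whole organoids against 125 to 176 in YFP plates (-1.32 ± 0.24, adjusted p = 0.0015), Gins2 24.8 and 27.7 against 46.3 to 83.5 (-1.17 ± 0.31, adjusted p = 0.015) and Mcm6 83.7 and 125 against 145 to 187 (-0.65 ± 0.21, adjusted p = 0.041). Rrm2, the regulatory subunit of ribonucleotide reductase, was the member that was higher, at 70.4 and 129 CPM against 64.6, 52.3, 41.2, 36.3 and 67.2 (0.88 ± 0.26, adjusted p = 0.025). Rrm1, the catalytic subunit of that enzyme, had a fitted change in the other direction that did not pass (-0.69 ± 0.26, adjusted p = 0.0705). Pcna, the S member with the highest mean CPM, stood at 309 and 344 against 207 to 358 CPM (0.16 ± 0.22).

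Of other genes, 21 of 32 G2M genes and 3 of 19 S genes (Pold1, Prim1 and Rfc4) were lower and none higher; Foxm1, which drives late cell cycle genes, was lower (-1.04 ± 0.28), as were Myc, Ccnd1, Cdk4 and E2f8. The inhibitors Cdkn1a (2.39 ± 0.40), Btg1, Btg2 and Tob1 were higher and Cdkn2c lower. In the same comparison 12 of 18 enterocyte markers were higher, and 10 of 10 Paneth, 5 of 12 goblet, 4 of 19 enteroendocrine and 10 of 14 stem markers lower. Without marker-rich wells, 8 G2M members were lower (Birc5, Ccnb2, Hmmr, Mki67, Nusap1, Tacc3, Tpx2 and Ube2c; median of the 25, -0.55), while 5 S members were higher (Cdc6, Hells, Mcm3, Rrm2 and Slbp) and Tk1 was lower (13.6% of 9622 genes called, 7.18% higher and 6.42% lower). Without whole organoid replicate 1 the G2M calls were 4, namely Birc5, Hmmr, Mki67 and Tpx2.

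The sorts within organoids gave no member call in the main fits. In Reg4-positive against whole organoid cells, 0 of 25 G2M and 0 of 19 S members passed edgeR's threshold (6.46% of 10522 genes did), with 1 G2M and no S member under 0.05 before adjustment and medians of 0.24 and 0.09. Top2a was nearest, at 157 and 276 CPM against 93.5 and 140.0 (0.92 ± 0.38, adjusted p = 0.21). Beside this, 15 of 18 enterocyte markers were lower in Reg4-positive cells, and 9 of 10 Paneth, 7 of 17 enteroendocrine and 4 of 12 goblet markers higher. In wells rich in no marker list, of which Reg4-positive cells had 12, Rrm2 was lower and no other member was called (2.41% of 9669 genes).

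In the Lgr5-positive library against whole organoids, no member passed either (3.63% of 10522 genes did), although all 44 fitted changes were above 0 (Rrm2 by 0.00), with medians of 1.16 for G2M and 0.72 for S members. Before adjustment 11 G2M and 7 S members were under 0.05. Nusap1 had 79.1 CPM in the library against 12.6 and 27.7 (2.05 ± 0.48, adjusted p = 0.058), Top2a 409 against 93.5 and 140.0 (1.85 ± 0.44, adjusted p = 0.064), Gins2, a subunit of the active helicase, 106 against 24.8 and 27.7 (2.06 ± 0.50, adjusted p = 0.067) and Hmmr 55.0 against 17.7 and 17.2 (1.69 ± 0.44, adjusted p = 0.077). The library exceeded both whole organoid replicates for each of them, and the lone library is assumed to vary as the other groups do. Lgr5 itself had 245 against 29.9 and 63.4 CPM (2.45 ± 0.57, adjusted p = 0.058). The checkpoint kinase Ttk was called higher among the other G2M genes (2.80 ± 0.58), Cdkn1a (-3.61 ± 0.64) and Tob1 (-2.27 ± 0.43) lower among the inhibitors, and Ascl2, Cdca7, Igfbp4 and Rnf43 higher among stem markers, while 13 of 18 enterocyte markers were lower. The absence of calls depended on the setting: DESeq2 called 1 G2M member, and a joint fit over 5 groups called 11 G2M and 6 S members. The joint fit called more of all genes too. Members were also called without whole organoid replicate 2. Without wells 49 to 96 of its plate IV, which a label note may mean to discard, 2 G2M members were called. The share of all genes called is not given beside these counts, so they do not set the members apart from other genes. Without marker-rich wells Cenpe, Nusap1 and Gins2 were higher (5.73% of 9669 genes called).

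Between Lgr5-sorted cells of organoids and of the intestine, 0 of 25 G2M and 0 of 19 S members passed (1.44% of 10632 genes did), and only Gins2 was under 0.05 before adjustment (106 against 46.0 and 57.6 CPM, 1.06 ± 0.39, adjusted p = 0.26). The median log2 fold change was 0.37 for G2M and 0.19 for S members.

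The effect of the Lgr5 sort was also compared between culture and intestine, with 1 Lgr5-positive library on the organoid side, assumed to vary as the other groups do. The comparisons above share groups, and the next one is built from the same 4 groups, so it is not independent of them. The difference of the differences, Lgr5-positive over whole organoid minus Lgr5-EGFP over 5-day YFP, passed edgeR's test for 6 of 25 G2M and 2 of 19 S members, all positive (4.39% of 10632 genes passed). These were Nusap1 (2.09), Hmmr (2.12), Aurkb (2.10), Ccnb2 (2.07), Mki67 (1.74) and Birc5 (1.6), and Gins2 (2.23) and Tk1 (1.83). Nusap1, for one, had a fitted effect of 2.07 in organoids and -0.03 in the intestine, and Ccnb2 of 1.31 and -0.76. The median fitted effect of the Lgr5 sort on G2M members was 1.17 in organoids and -0.22 in the intestine, and on S members 0.72 and 0.26. The whole organoid group is random cells and the YFP group is 5 days of Lgr5 progeny, so the reference cells of the effects differ in kind. The calls rested on single replicates: without Lgr5-EGFP plate 1 only Tk1 passed, without plate 2 only Hmmr, and without whole organoid replicate 1 only Hmmr and Nusap1. Without any 1 YFP plate, or on library totals without TMM, Hmmr, Nusap1, Gins2 and Tk1 were left, and without whole organoid replicate 2, 13 G2M and 2 S members passed. Without marker-rich wells Aurkb, Birc5, Mki67, Nusap1, Gins2 and Tk1 passed, and Cdc6 with a negative difference.

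Counting cells rather than mRNA gave the share of wells with cell cycle transcripts. Each kept well was thinned to 1500 counts, and wells with at least 3 counts of the G2M members were called G2M-rich, those with at least 3 of the S members S-rich. G2M-rich wells made up 11.96% and 22.5% of whole organoid wells, 10.7% and 18.5% of Reg4-positive wells, 43.2% of the Lgr5-positive library, 50.7% and 45.2% of Lgr5-EGFP wells, and 40.5% to 60.0% of YFP wells (mean 51.6 ± 7.6, SD, n = 5). S-rich wells made up 17.0% and 30.6%, 17.3% and 13.6%, 62.2%, 74.7% and 61.9%, and 40.0% to 52.9% (mean 45.3 ± 5.3). For S, the YFP plates lay below both Lgr5-EGFP plates, while for G2M the groups overlapped. Wells that were S-rich only were 36.6% ± 2.9 (SD, n = 2) of Lgr5-EGFP wells and 16.5% ± 3.3 (n = 5) of YFP wells, and wells that were neither were 15.5% ± 6.8 and 32.0% ± 9.1. In whole organoids 70.5% ± 14.5 (n = 2) and in Reg4-positive cells 80.2% ± 1.6 (n = 2) of wells were neither.

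These classes are ranges of a count, not cell types: in YFP plates 37 wells had 2 and 25 had 3 G2M counts. Wells with no member count at all at this depth were 23.3% of whole organoid, 39.8% of Reg4-positive, 6.76% of Lgr5-positive, 1.79% of Lgr5-EGFP and 6.86% of YFP wells. Without thinning, the G2M-rich share was 50.2% in whole organoids, 24.15% in Reg4-positive, 82.4% in Lgr5-positive, 87.3% in Lgr5-EGFP and 77.1% in YFP wells.

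**Figure D3:**
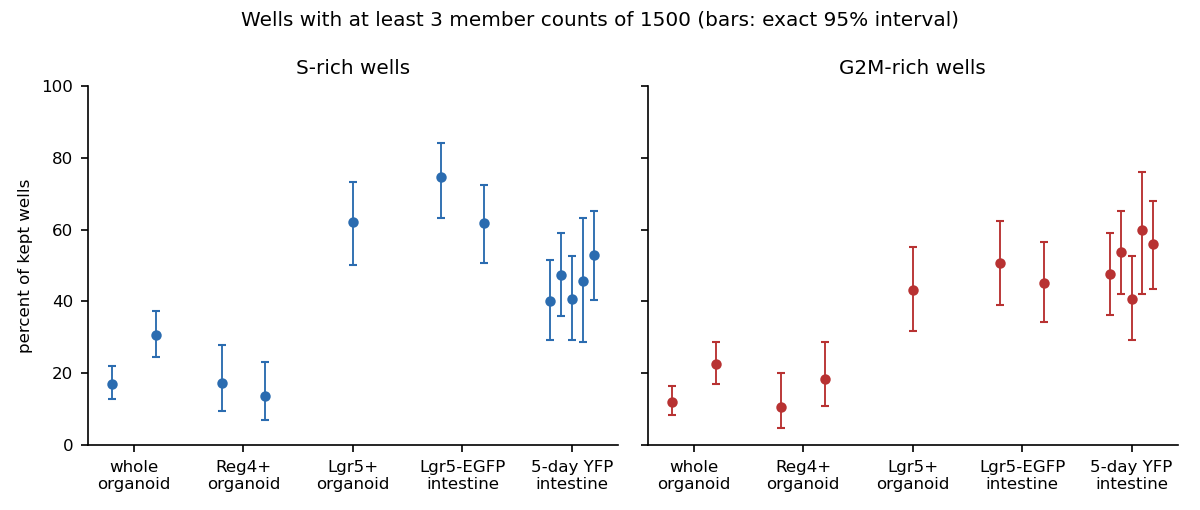
Percent of kept wells that were S-rich (left) or G2M-rich (right) in each replicate, with exact 95% binomial intervals (error of counting alone). The 5 YFP plates lie at 40.0% to 52.9% for S against 61.9% and 74.7% in Lgr5-EGFP plates, and overlap those plates for G2M.

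Enterocyte-rich wells had few cell cycle transcripts in organoids and in the intestine. Pooled over all replicates, 11 of 311 enterocyte-rich wells were G2M-rich (3.54%, exact 95% interval 1.78 to 6.24), 7 of 84 enteroendocrine-rich (8.33%), 19 of 140 Paneth-rich (13.6%), 20 of 124 goblet-rich (16.1%) and 329 of 649 wells rich in no list (50.7%, interval 46.8 to 54.6). Median depths were 5874 and 8810 counts in enterocyte-rich wells and wells rich in no list. Of the enterocyte-rich wells 281 came from organoids, so classes pooled in this way differ in origin too. S-rich shares were 5.14% of enterocyte-rich, 4.76% of enteroendocrine-rich, 20.7% of Paneth-rich, 19.4% of goblet-rich and 57.9% of wells rich in no list. In the 3 replicates with at least 10 wells of each class, enterocyte-rich wells were G2M-rich less often than wells rich in no list by 44.5 ± 11.2 points (mean ± SD) and S-rich less often by 47.1 ± 7.3 points, in 3 of 3.

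For goblet-rich wells, pooled over replicates and sorts, the counting intervals of the G2M-rich share did not overlap between organoids and intestine. Goblet-rich wells were G2M-rich in 3 of 82 organoid wells (3.66%, interval 0.761 to 10.3) and in 17 of 42 intestinal wells (40.5%, interval 25.6 to 56.7). Their median depths before thinning were 5806.5 counts in organoids and 11730 in the intestine. Paneth-rich wells were G2M-rich in 10.2% of 98 organoid and 21.4% of 42 intestinal wells, with overlapping intervals, and enteroendocrine-rich wells in 5.56% of 72 and 25.0% of 12, also with overlapping intervals. S-rich shares in the intestine were 42.9% of goblet-rich and 35.7% of Paneth-rich wells, against 7.32% and 14.3% in organoids. The goblet wells of organoids were mostly Reg4-positive cells (65 of 82), so sort and origin cannot be told apart. Wells can be rich in more than 1 list: in Reg4-positive replicate 1, 46 goblet-rich and 59 Paneth-rich wells came from 75 kept wells. Many goblet-rich wells there were thus Paneth-rich too, and the make-up of the class was not compared between origins. A share pooled over replicates has no replicate test.

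**Figure D4:**
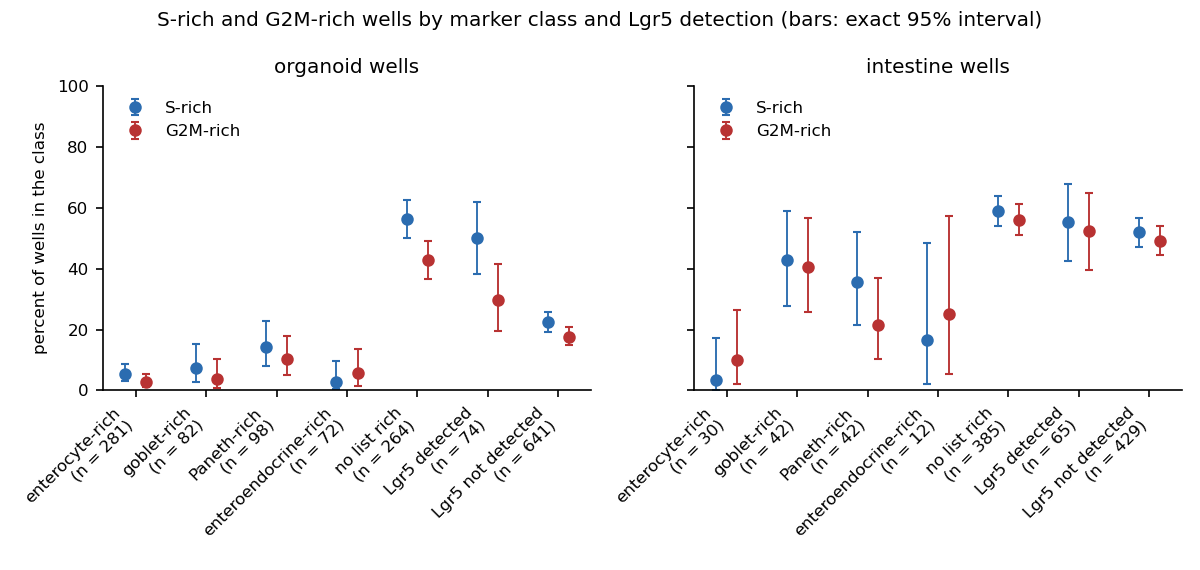
Percent of wells that were S-rich or G2M-rich by marker class and by Lgr5 detection, pooled over organoid replicates (left) and intestinal replicates (right), with exact 95% binomial intervals. Enterocyte-rich wells lie at or under 10.0% in both panels, and wells rich in no list lie between 42.8% and 59.0%.

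Wells with and without an Lgr5 count had S and G2M shares whose differences varied in sign between replicates, for S by sort. Among replicates with at least 10 wells of each kind, the G2M-rich share in wells with an Lgr5 count minus that in wells without was 1.63 ± 5.19 points (SD, n = 6; 4 above 0 and 2 below) and the S-rich difference was 7.62 ± 17.9 points (3 above and 3 below). Pooled over organoid wells, 29.7% of 74 with Lgr5 and 17.6% of 641 without were G2M-rich, with median depths of 9610 and 6476 counts before thinning, and 50.0% (interval 38.1 to 61.9) and 22.5% (interval 19.3 to 25.9) were S-rich. Of these wells 27 and 47 came from the Lgr5-positive library, so the pooled classes differ in sort too. The G2M-rich shares with and without Lgr5 were 17.6% and 11.6% in whole organoid replicate 1 and 21.4% and 22.6% in replicate 2. They were 14.3% and 9.84% in Reg4-positive replicate 1, and 44.4% and 42.6% in the Lgr5-positive library. The S-rich shares with and without Lgr5 were 47.1% and 15.1% in whole organoid replicate 1, 42.9% and 29.7% in replicate 2, and 35.7% and 13.1% in Reg4-positive replicate 1. They were 59.3% and 63.8% in the Lgr5-positive library, 72.7% and 75.5% in Lgr5-EGFP plate 1, and 50.0% and 64.7% in plate 2. The S-rich difference was thus above 0 in the 3 replicates not sorted for Lgr5 and below 0 in the 3 that were. Of the intestinal wells, 52.3% of 65 with Lgr5 and 49.2% of 429 without were G2M-rich, and 55.4% and 52.0% were S-rich. Of these wells 38 and 121 were Lgr5-EGFP cells, so the pooled classes differ in sort here too. Within the sorts, S-rich shares with and without Lgr5 were 63.2% and 69.4% in Lgr5-EGFP wells and 44.4% and 45.1% in YFP wells. G2M-rich shares were 47.4% and 47.9% in Lgr5-EGFP wells and 59.3% and 49.7% in YFP wells. Detection mostly rests on 1 count, so many wells without a count may hold Lgr5 mRNA that was not sampled.

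In sums of Lgr5-detected against other wells of the same replicate (9 pairs), edgeR called 0 of 23 tested G2M and 0 of 18 tested S members (0.858% of 5592 genes were called); no G2M and 2 S members were under 0.05 before adjustment, Lig1 (0.52 ± 0.18, adjusted p = 0.24) and Mcm2 (0.49 ± 0.20, adjusted p = 0.31). DESeq2 made no member call at that threshold, another random thinning of the wells called Ccnb2 and Dut higher, and organoid pairs alone called Lig1. The calls among listed genes were stem markers that rose with Lgr5, namely Axin2 (0.78), Rnf43 (0.85), Slc12a2 (0.75) and Smoc2 (0.80), the tubulin regulator Stmn1 (0.69) among other G2M genes, and markers that were lower, namely 8 of 14 tested enterocyte genes (Sis by -2.28) and Chgb (-4.05). In organoid pairs alone all 18 tested S members had positive fitted changes (median 0.65), and in intestinal pairs 2 of 18 did (median -0.20). The difference between origins was negative for all 18, with 11 under 0.05 before adjustment, yet none passed over all genes (smallest adjusted p = 0.80; 0.0% of genes called).

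The S members differed in how they stood in wells with high G2M counts. In sums of G2M-rich against other wells of the same replicate (12 pairs), edgeR called 6 of 19 S members higher and none lower (22.5% of 6295 genes were called, 9.85% higher and 12.7% lower). The 4 members with the largest called changes were enzymes of nucleotide supply, though Dut, a further one, did not pass (0.52 ± 0.19, adjusted p = 0.062). Tk1 ranged from 100.2 to 232 CPM in G2M-rich wells (median 169) and from 5.54 to 112 in the rest (median 51.9), higher in 12 of 12 pairs (1.69 ± 0.20, adjusted p = 5.2e-06). Rrm2 had medians of 88.6 and 33.2 CPM and was higher in 11 of 12 pairs (1.42 ± 0.21, adjusted p = 5.3e-05). Rrm1, the catalytic subunit of ribonucleotide reductase, had medians of 153 and 66.3, and thymidylate synthase (Tyms) 107 and 50.8, both higher in 12 of 12 pairs (1.10 ± 0.16 and 1.11 ± 0.17). Tyms has a pseudogene row, Tyms-ps, with 0 to 27 counts per replicate, so its reads are less certain. Mcm7 (0.65 ± 0.20, adjusted p = 0.026) and Gins2 (0.79 ± 0.27, adjusted p = 0.040) also passed, each in 10 of 12 pairs. On library totals without TMM 12 S members were higher, against 18.4% of all genes.

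The licensing factors and most Mcm subunits did not pass. Mcm2, Mcm3, Mcm4, Mcm6 and Cdt1 had fitted changes of 0.07 to 0.18, and Cdc6 of -0.15 ± 0.33. Mcm4, for one, had a median of 74.8 CPM in G2M-rich wells and 63.2 in the rest, higher in 5 of 12 pairs. Marker genes moved strongly between the same wells: all 16 tested enterocyte, all 8 Paneth, 8 of 10 goblet and 1 of 2 enteroendocrine markers were lower in G2M-rich wells (Sis by -2.22, Defa24 by -3.66, Chgb by -2.92).

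With marker-rich wells left out, G2M-rich wells were compared with other wells that had few differentiation transcripts (10 pairs, none Reg4-positive; 7.02% of 5851 genes called, 3.86% higher and 3.16% lower). Then 4 of 18 tested S members were higher, Tk1 (1.15), Rrm2 (0.72), Tyms (0.56) and Rrm1 (0.54), and 5 were lower, Mcm4 (-0.70), Cdt1 (-0.66), Mcm6 (-0.65), Mcm3 (-0.59) and Mcm2 (-0.54). Adjusted p-values (edgeR) were 6.8e-08 to 0.0040. Cdt1, which loads the helicase, ranged from 58.3 to 122 CPM in G2M-rich wells (median 91.3) and from 92.3 to 191 in the others (median 123), lower in 10 of 10 pairs. Mcm4 had medians of 74.3 and 121 CPM and was higher in 1 of 10 pairs. Mcm6 had medians of 169.6 and 239 CPM and was higher in 2 of 10 pairs. Tk1 ranged from 106 to 249.6 CPM (median 203) against 16.9 to 148 (median 73.2), higher in 10 of 10 pairs. Mcm5, Mcm7, Pcna, Slbp, Lig1, Uhrf1, Hells, Gins2 and Dut had fitted changes between -0.13 and 0.09.

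**Figure D5:**
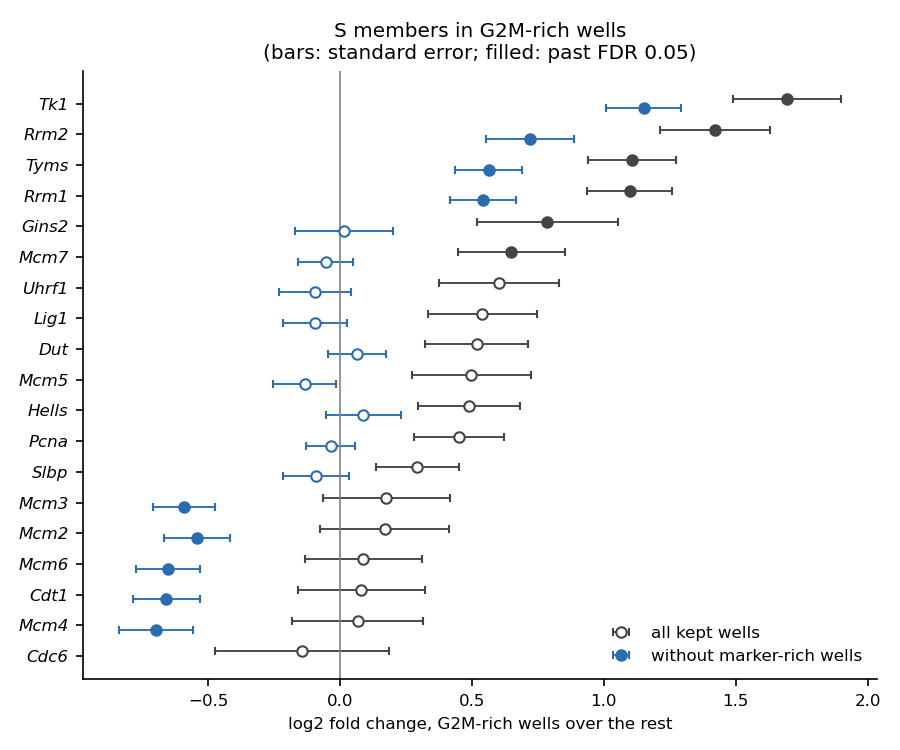
Log2 fold change of the S members in G2M-rich wells over other wells of the same replicate, from all kept wells (grey, 12 pairs) and without marker-rich wells (blue, 10 pairs), with standard errors; filled points passed a false discovery rate of 0.05, and Cdc6 was not tested in the second fit. Tk1, Rrm2, Tyms and Rrm1 lie above 0 in both, and Mcm2, Mcm3, Mcm4, Mcm6 and Cdt1 lie at -0.54 to -0.70 without marker-rich wells.

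This split was measured in the intestinal replicates with their marker-rich wells too: there Rrm1, Rrm2, Tk1 and Tyms were higher and Mcm2 and Mcm4 lower. In organoid replicates alone 14 S members were higher. The share of all genes called in each of these fits is not given beside the counts, so they do not set the members apart from other genes. The medians were 1.11 in organoids and 0.01 in the intestine; the difference was negative for all 19, 15 were under 0.05 before adjustment, and none passed over all genes (smallest adjusted p = 0.11; 0.0159% of genes called).

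Lgr5 did not pass the test in G2M-rich wells over all kept wells (medians of 82.1 and 86.8 CPM, lower in 9 of 12 pairs, -0.07 ± 0.16, adjusted p = 0.805). Without marker-rich wells it was lower, with medians of 81.4 and 103 CPM, in 9 of 10 pairs (-0.44 ± 0.13, adjusted p = 0.027). Of the other stem markers Olfm4 (-0.79 ± 0.18) and Prom1 (-0.36 ± 0.10) were lower over all kept wells.

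Genes beyond the members followed the class: 26 of 27 tested other G2M genes were higher in G2M-rich wells. The largest rises among non-members of at least 50 CPM were Ckap2l (3.67), Espl1, the separase that cuts cohesin (3.55), Iqgap3, Sapcd2, Kif22, Nek2, Cdca2, Prc1, Spc25 and Anln (3.05). Of 16 tested other S genes 11 were higher, Mcm10 by 1.34 and Fen1 by 0.74. The transcription factors Foxm1 (2.45 ± 0.25), E2f8 (1.48 ± 0.24) and Mybl2 (1.09 ± 0.21) and the pocket protein Rbl1 (0.82 ± 0.23) were higher, 4 of 12 regulators tested. The antiproliferative genes Btg2 (-1.13 ± 0.15), Cdkn1a (-0.91 ± 0.18), Btg1 (-0.55 ± 0.17) and Tob1 (-0.49 ± 0.16) were lower, 4 of 5 tested.

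In S-rich wells 3 of 25 G2M members were higher and none lower (edgeR, 12 pairs; 23.9% of genes were called over 6075 tested, 10.4% higher and 13.5% lower), a share close to that of all genes called higher. That count moved with the setting: 0 with no replicate block or at 5 counts, 6 with another thinning or on library totals without TMM (18.0% of genes higher), and 11 at 2 counts. Top2a ranged from 198 to 415 CPM in S-rich wells (median 300.4) and from 35.1 to 461 in the rest (median 174), higher in 10 of 12 pairs (1.00 ± 0.27, adjusted p = 0.016). Aurkb (medians 76.8 and 35.6 CPM, 1.21 ± 0.33, adjusted p = 0.017) and Bub1 (33.3 and 16.7 CPM, 1.07 ± 0.35, adjusted p = 0.036) were also higher in 10 of 12 pairs. The mitotic cyclins were not: Ccnb1 (0.14 ± 0.32) and Ccnb2 (0.12 ± 0.34) were each higher in 6 of 12 pairs, and Ube2c (0.20 ± 0.32) had medians of 286 and 281 CPM. Without marker-rich wells Top2a (adjusted p = 0.19) and Aurkb (adjusted p = 0.074) did not pass and Bub1 was not tested, the G2M median was -0.08, and Ccnb2 was lower (medians of 107 and 189 CPM, higher in 2 of 10 pairs, -0.70 ± 0.18, adjusted p = 0.014; 6.82% of 4865 genes called). Organoid replicates alone had 11 G2M members higher and intestinal replicates alone none. The share of all genes called in each of these fits is not given beside the counts, so they do not set the members apart from other genes. In the fit of their difference the medians were 1.29 and -0.04. By edgeR, 22 of 25 differences were under 0.05 before adjustment and none passed over all genes (smallest adjusted p = 0.061, 0.0494% of genes called).

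S-rich wells also had more mRNA of other S genes: 14 of 15 tested other S genes were higher, and the largest rises among non-members included Tcf19 (2.22), Dtl, which targets Cdt1 for destruction (2.17), Atad2 (1.97), Prim1, a primase subunit (1.69), and Rpa2 (1.66). Of 11 tested regulators 8 were higher, Mybl2 (1.82 ± 0.22), E2f8 (1.77 ± 0.24), Cdk2 (1.08 ± 0.22) and cyclin D1 (Ccnd1, 0.92 ± 0.18) among them. Of 28 tested other G2M genes 7 were higher. Btg1, Btg2, Cdkn1a and Tob1 were lower, 4 of 5 inhibitors tested. Of the markers, 14 of 16 enterocyte genes, 7 of 9 Paneth genes, 3 of 10 goblet genes and Chgb were lower, and the stem marker Cdca7 was higher (0.84 ± 0.19). Lgr5 did not pass (0.35 ± 0.27, adjusted p = 0.34).

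The S and G2M classes overlapped in most replicates. The share of S-rich wells among G2M-rich wells minus that among the others was above 0 in 10 of 12 replicates, with a median of 26.1 points. It was 51.6 ± 27.6 points over the 5 organoid replicates and 14.0 ± 17.4 over the 7 intestinal ones. By sort it was 73.6 and 37.4 points in whole organoids, 78.5 and 57.0 in Reg4-positive cells and 11.6 in the Lgr5-positive library. Sort and origin thus cannot be told apart, and the part of marker-rich wells in these differences was not tested. YFP plate 2 was barely above 0, at 0.397 points. The 2 Lgr5-EGFP plates were the exceptions, at -7.33 and -2.52 points: there 71.1% and 60.5% of G2M-rich wells and 78.4% and 63.0% of the others were S-rich.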

How the data were processed

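Single cells of 5 groups (12 replicates) were counted by CEL-seq. The deposited tables hold estimated counts per gene and well, which the authors made by correcting the number of distinct barcodes seen for barcodes used more than once, per the values themselves: 3857660 of 3857686 nonzero values become whole when that correction for 256 barcodes is inverted (tolerance 1e-06). BWA 0.6.2-r126 and the mm10 build are named in the submitters' processing notes. No label or header used here names the counting tool. Of the tables, 2 could not be matched to a sample and were not used, and the Lgr5-positive organoid table was matched by its name alone.

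Spike-in rows were set aside, counts were rounded, wells of at least 1500 counts were kept and wells were summed per replicate. A label note on discarding wells 49 to 96 of a sample number 4 does not make clear which plate is meant. YFP plate 4 holds 48 wells, and wells 49 to 96 of whole organoid replicate 2 plate IV were kept in the main fits. Doublets were not called. Tests were edgeR 4.0.16 quasi-likelihood fits (TMM, filterByExpr, R 4.3.3, limma 3.58.1) over all genes with Benjamini-Hochberg adjustment at 0.05. CPM are on the TMM scale. Errors of log2 fold changes are approximate standard errors, computed as the absolute change divided by the square root of the test's F value. The script was tested on simulated data. For classes, each well was thinned to 1500 counts: G2M-rich and S-rich needed 3 counts of the members, marker-rich 20 counts of a list. Class fits used full counts summed per replicate and class (at least 5 wells in each), with the replicate as a block. Intervals are exact Clopper-Pearson at 95%. CEL-seq reads 3′ ends, so levels were compared within a gene only.

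The members and the other lists (other S genes, other G2M genes, cell cycle regulators and inhibitors, and stem, enterocyte, goblet, Paneth, enteroendocrine, tuft, immune and stromal markers) were chosen with earlier results of these data known. Members called in a comparison were named, lowest adjusted p first, with the 4 S and 6 G2M members of highest mean CPM, called genes of the other lists, and up to 10 leading genes of at least 50 CPM per class fit. Alternatives included DESeq2 1.42.0, a joint fit, no filter, thinning, other thresholds and each replicate left out; fits without marker-rich wells, fits on library totals without TMM, and every alternative for the difference of the Lgr5 sort effects were chosen after seeing the data.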

Additional observations from a re-analysis of the deposited data

Results flagged for a closer look

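Among the 5 YFP plates, 1 plate stood apart from the other 4 by Dixon's test in 3 of 37 sets of values tested, and chance alone gives about 1 in 20. Plate 4 was high for Ccnb2 (203 CPM) and low for the log2 ratio of S to G2M counts (-0.658); it has 35 kept wells, the fewest of all replicates. Plate 5 was high for Ube2c (450 CPM).

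The effect of the Lgr5 sort differed between organoids and intestine for 8 members by edgeR's test of the difference (log2, organoid minus intestine). The values were 2.10 for Aurkb (adjusted p = 0.0383), 1.6 for Birc5 (0.0490), 2.07 for Ccnb2 (0.0481), 2.12 for Hmmr (0.0197), 1.74 for Mki67 (0.0465), 2.09 for Nusap1 (0.0199), 2.23 for Gins2 (0.0238) and 1.83 for Tk1 (0.0217). The organoid side rests on 1 Lgr5-positive library, and without Lgr5-EGFP plate 1 only Tk1 passed.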

How the results depend on the processing

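Deviations of same-numbered samples from their group means correlated at -0.0975 to -0.0128 over 10678 genes. In groups with 2 replicates these deviations mirror each other, so the organoid pairs gave the same value. The values therefore do not decide whether the replicate numbers pair the samples. With the replicate block, YFP against Lgr5-EGFP had 5 G2M members called (11 without) and whole organoid against YFP had 9 G2M and 1 S member (19 and 4) of 918 genes; genes called were 418 in Reg4-positive against whole organoid and 76 in Lgr5-positive against Lgr5-EGFP. With no replicate block, genes called were 0 for Lgr5-detected, 571 for G2M-rich and 625 for S-rich wells, and no G2M member was called in S-rich wells.

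For YFP against Lgr5-EGFP (2330 genes, 11 G2M and 7 S members), DESeq2 called 1503 genes and 5 G2M members, wells thinned to 1500 counts gave 581 genes, 1 G2M and 1 S member, and 1 fit over 5 groups gave 0 G2M and 2 S members. Library totals without TMM gave 3957 genes (16.2% of them higher, 57.2% with TMM), 5 G2M and 15 S members, with the median of all genes at -0.44. Leaving out 1 plate gave 1104 to 2446 genes, 0 to 9 G2M and 2 to 7 S members. For whole organoid against YFP (2435 genes, 19 G2M and 4 S members), thinned wells gave 701 genes, 12 G2M and 2 S members, wells without marker-rich ones 1309 genes and 8 G2M members, and leaving out 1 replicate 1187 to 2447 genes (2199 without YFP plate 4), 4 to 22 G2M and 2 to 5 S members.

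For Reg4-positive against whole organoid (680 genes, no member), no filter gave 1716 genes, 1 fit over 5 groups 1910 genes with 1 G2M and 1 S member, wells without marker-rich ones 233 genes and 1 S member, and leaving out 1 replicate 209 to 933 genes and 0 to 1 G2M members. For Lgr5-positive against whole organoid (382 genes, no member), no filter gave 1372 genes, 7 G2M and 1 S member, 1 fit over 5 groups 1738 genes, 11 G2M and 6 S members, library totals without TMM 245 genes (29.8% of them higher, 18.1% with TMM; median of all genes 0.22), thinned wells 137 genes and 1 G2M member, DESeq2 1 G2M member, no wells above 100000 counts 143 genes and 1 S member, no marker-rich wells 2 G2M and 1 S member, and no wells 49 to 96 of whole organoid replicate 2 plate IV 2 G2M members. Leaving out 1 replicate there gave 384 to 837 genes (561 without whole organoid replicate 1), 0 to 7 G2M and 0 to 1 S members. For Lgr5-positive against Lgr5-EGFP (153 genes), no filter gave 472, thinned wells 16, no marker-rich wells 364, library totals 143 (35.7% higher, 52.9% with TMM) and leaving out 1 replicate 41 to 154 genes (56 without Lgr5-EGFP plate 1). For the difference of the Lgr5 sort effects (467 genes, 6 G2M and 2 S members), library totals gave 2 G2M members, and leaving out 1 replicate 112 to 637 genes, 0 to 13 G2M and 0 to 2 S members.

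In Lgr5-detected wells (48 genes, no member), DESeq2 called 164 genes, no filter 494, a well minimum of 3000 gave 31, intestine alone 2, no marker-rich wells 11, and another seed 168 genes with 1 G2M and 1 S member; organoids alone gave 1 S member. In G2M-rich wells (1417 genes, 6 S members), no filter gave 2293 genes and 12 S members, intestine alone 504 genes, no marker-rich wells 411 genes, library totals 12 (71.3% of the calls over all genes higher, 43.8% with TMM), a threshold of 2 counts 13 and organoids alone 14 S members. In S-rich wells (1451 genes, 3 G2M members), no filter gave 2273 genes and 16 G2M members, intestine alone 247 genes and 0, no marker-rich wells 332 genes and 1, DESeq2 5, library totals 6 (70.3% of all calls higher, 43.5% with TMM), another seed 6, thresholds of 2 and 5 counts 11 and 0, and organoids alone 11 G2M members. In G2M-rich wells without marker-rich ones Mcm6 (-0.65, adjusted p = 0.000176, edgeR) and Mcm7 (-0.055, adjusted p = 0.852) turned sign.

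Shares moved with threshold and depth. At thresholds of 2 and 5 counts G2M-rich shares were 62.6% and 36.0% (YFP) and 61.2% and 41.0% (Lgr5-EGFP); whole organoid was 27.4% at 2 and Reg4-positive 8.94% at 5. S-rich shares at 2 and 5 counts were 58.7% and 20.1% (YFP), 84.8% and 44.3% (Lgr5-EGFP), 25.8% and 8.37% (Reg4-positive) and 36.3% and 14.2% (whole organoid), and 75.7% at 2 (Lgr5-positive). Thinned to 3000 counts, G2M-rich shares were 63.75%, 63.97%, 60.8% and 33.8% in YFP, Lgr5-EGFP, Lgr5-positive and whole organoid wells, and S-rich shares 74.3%, 91.1%, 83.8%, 45.5% and, in Reg4-positive wells, 25.25%. Without thinning, G2M-rich shares were 77.1%, 87.3%, 82.4%, 50.2% and 24.15%, and S-rich shares 83.5%, 98.1%, 91.9%, 64.2% and 41.4%, in the same order. The log2 ratio of S to G2M in Reg4-positive cells was -0.63 without marker-rich wells and -0.16 to 0.32 without 1 replicate, and in Lgr5-EGFP cells -0.15 to 0.082. The cause of these shifts was not tested.

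Of the named genes' values under all alternatives, 65 of 318 in YFP against Lgr5-EGFP and 40 of 340 in whole organoid against YFP lost their call and none turned sign. In thinned wells a single count is the limit of detection, so a low gene's absence there was not detectable at this depth.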
